A study of Mus musculus with 18 samples.

Results

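The peroxisome proliferator-activated receptors (PPARs) and the proteins they work with were examined as possible targets of BMAL1, a circadian clock transcription factor that binds DNA together with CLOCK. The 7 genes were chosen by name: the receptors Ppara, Ppard and Pparg, their partner Rxra, the related orphan receptor Esrra, and the coactivators Ppargc1a and Ppargc1b. They were chosen with earlier results of these data known, so the counts below describe them and are no test. A site was a BMAL1 peak with its centre inside a gene or within 10 kb of either end. This gave 24 of the 11366 peaks in 3 tissue lists, at 6 of the 7 genes and in 17 of 9005 regions. The series has 21887 protein-coding genes as the background.

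PPARs are nuclear receptors that respond to fatty acids and bind DNA as heterodimers with retinoid X receptors such as RXRA. PPAR-alpha drives fatty acid oxidation in liver, kidney and heart, PPAR-delta is widely expressed, and PPAR-gamma is best known from fat cells. The coactivators PGC-1alpha and PGC-1beta, encoded by Ppargc1a and Ppargc1b, carry no DNA-binding domain of that kind. They raise the activity of PPARs and of ERR-alpha, the product of Esrra, at genes of mitochondrial energy metabolism.

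The peaks came from BMAL1 chromatin immunoprecipitation and sequencing (ChIP-seq) from 3 tissues (liver, kidney, heart) of C57BL/6 mice, wild type and aged 3 to 6 months. The mice lived under cycles of 12 h light and 12 h dark with free access to food, and the tissues of the same animals were collected 6 h after lights on, in the middle of the light phase. Each tissue had 3 ChIP and 3 input libraries, 18 in all, and these are whole tissues, so the bound cell type is not known. All libraries of a tissue were pooled into 1 list, of 4813 liver, 4034 kidney and 2519 heart peaks, so no value below has an error between animals, no test between tissues could be made, and the depth is unknown. The heart input libraries carry a source label that names kidney, against their titles. Whether heart peaks were called against heart input was not tested, and this touches every statement on heart.

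Liver and kidney had sites at most of these genes, and heart had none. A liver site was found at 5 of the 7 genes and a kidney site at 6, against 18.1% and 18.0% of all protein-coding genes. Heart sites were found at 0 of 7, where 11.5% of protein-coding genes have 1, a share at which 0 of 7 does not stand apart. Long genes hold sites more often, and the 7 genes span 11.1 to 662.0 kb. Among protein-coding genes of that range of span 22.4% had a liver site, 21.6% a kidney site and 14.9% a heart site. That range is wide and holds 13267 genes, while all of the 7 but Esrra span 68.7 kb or more. Gene length was therefore not matched.

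The best-ranked liver sites at the receptor genes Ppara and Esrra lay just upstream of their listed starts. At both genes a liver and a kidney peak overlapped the promoter window and ended before the listed start. The RefSeq gene spans extend upstream of these listed starts, and the centres of all these peaks lay inside the spans. Each peak carries a whole-number score from the authors, used here only to rank peaks within a list. At Ppara the liver peak (chr15:85735502-85735743) had a score of 152 and rank 138 of 4813. The kidney peak (chr15:85735497-85735684) had a score of 86 and rank 286 of 4034. Their centres lay 153.5 and 185.5 bp upstream of the start listed by RefSeq, and 32.0 bp apart. At Esrra the liver peak (chr19:6921918-6922159) had a score of 116 and rank 308, centred 230.5 bp upstream of the listed start. The kidney peak (chr19:6921822-6922009) had a score of 73 and rank 418, centred 107.5 bp upstream. These centres were 123.0 bp apart and the peaks had 92 bp in common, against a median offset of 19.0 bp over the 1479 regions with a liver and a kidney peak. The Esrra sites also lay 0.388 kb (liver) and 0.51 kb (kidney) outside the neighbouring gene Catsperz, so the peaks cannot be given to Esrra alone.

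The sequences at these starts are shown because they are the promoter windows, of those listed for these genes, that a peak overlapped. A start of Pparg follows as an unbound one. Each is the 250 bases before the listed start (RefSeq, GRCm38.p6), 5′ to 3′ along the gene, with the hexamer CACGCG, on either strand, in capitals. The coordinates are chr15:85735526-85735775 (plus strand) for Ppara, chr19:6921809-6922058 (minus strand) for Esrra, and chr6:115360894-115361143 (plus strand) for Pparg.
Ppara: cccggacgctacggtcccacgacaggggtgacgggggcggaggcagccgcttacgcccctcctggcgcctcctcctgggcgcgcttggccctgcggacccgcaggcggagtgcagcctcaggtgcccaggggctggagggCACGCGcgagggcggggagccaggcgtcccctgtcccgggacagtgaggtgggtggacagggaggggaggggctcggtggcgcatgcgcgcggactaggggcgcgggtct
Esrra: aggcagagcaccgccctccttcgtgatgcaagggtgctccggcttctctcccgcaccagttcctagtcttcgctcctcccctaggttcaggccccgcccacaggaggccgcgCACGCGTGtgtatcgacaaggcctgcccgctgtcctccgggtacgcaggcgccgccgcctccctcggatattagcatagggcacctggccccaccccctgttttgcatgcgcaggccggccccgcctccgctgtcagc
Pparg: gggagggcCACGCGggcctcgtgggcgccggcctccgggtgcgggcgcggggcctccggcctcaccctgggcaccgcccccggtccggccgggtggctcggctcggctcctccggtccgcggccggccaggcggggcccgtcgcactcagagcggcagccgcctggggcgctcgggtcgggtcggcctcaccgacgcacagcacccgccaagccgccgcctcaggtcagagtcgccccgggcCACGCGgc

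The canonical E-box CACGTG, the hexamer best known for CLOCK and BMAL1, was in none of the 9 promoter windows that RefSeq lists for 6 of the genes. A window runs from 250 bases before to 50 after a start. The variant CACGTT (or AACGTG) and the direct repeat DR1, to which PPAR and RXR dimers bind and which was searched on either strand as AGGTCA, any base and AGGTCA again, were also in none. Over all 32851 windows CACGTG was in 7.15%, CACGTT in 4.68% and the direct repeat in 0.0396%. The loose form CANNTG, which CACGTG also matches, was once in the Ppara window and in a pair of copies in the Esrra window, but 72.3% of all windows hold it. The hexamer CACGCG (or CGCGTG) was searched after the sequences had been seen. In Ppara it lay at bases 141 to 146 of the window, inside both the liver and the kidney peak, and once more after the start, at bases 294 to 299, outside both. In Esrra the capitals mark 2 overlapping matches, on opposite strands, at bases 113 to 120, where both peaks also overlap.

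That hexamer is not limited to bound promoters. It was in 9.27% of all windows and in 39.4% of the 606 windows overlapped by a liver and a kidney peak, where CACGTG was in 47.4%. Those windows are richer in G and C, with a median of 66.0% against 52.4% over all windows, and the part of base composition in these shares was not tested. The upstream 250 bases held 76.4% G and C in Ppara, 68.4% in Esrra and 82.4% in Pparg. The Pparg window shown held 2 matches without a peak, and none of the other windows without a peak held a match. A match describes these letters only, and both peaks at Ppara and the liver peak at Esrra reach upstream of the window whose sequence was read.

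**Figure D1:**
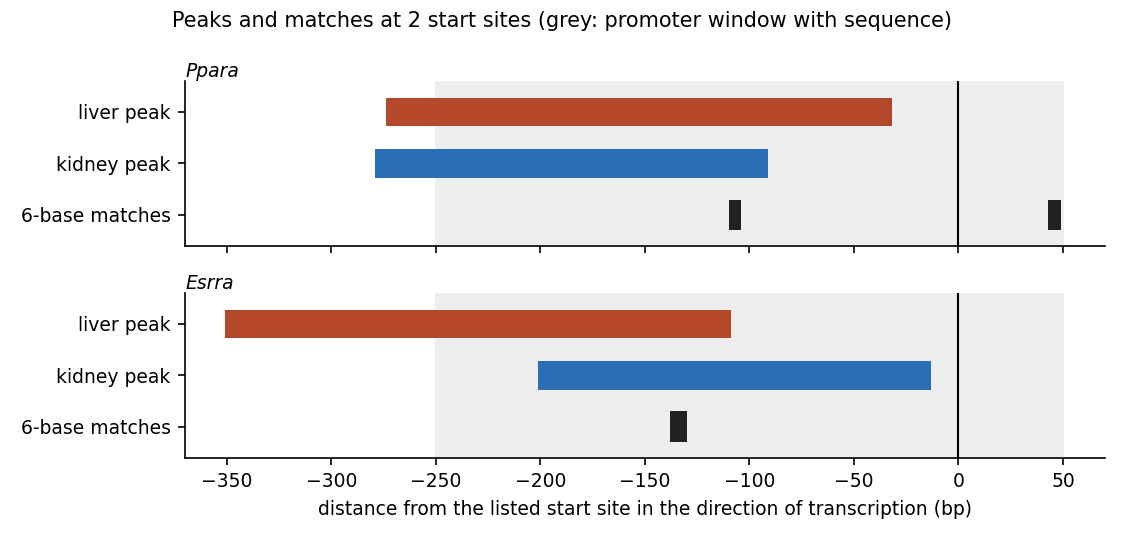
Positions of the liver peak (red) and the kidney peak (blue) around the listed start sites of Ppara and Esrra, in bp along the direction of transcription, with CACGCG matches as black bars and the promoter window in grey. The upstream match of Ppara, from -110 to -105 bp, and the paired match of Esrra, from -138 to -131 bp, lie where both peaks overlap.

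Ppara had further liver sites that kidney lacked. The second strongest lay 35.6 kb downstream of the listed start (chr15:85771303-85771544), inside the gene, with a score of 108 and rank 381. Another lay 39.5 kb downstream (chr15:85775182-85775423) and a further site 3.84 kb upstream of the start (chr15:85731820-85732061), each with a score of 50 and rank 1743. The weakest lay 27.4 kb downstream (chr15:85763069-85763310), with a score of 33 and rank 2869. Thus 4 of the 5 liver sites of Ppara had no counterpart in the kidney or heart list, rank 381 included. Most liver peaks also lack such a counterpart: 3199 regions held a liver peak only, beside a list of 4813 liver peaks. The count of 4 of 5 therefore does not set Ppara apart. The 6 sites spread over 43.6 kb. Of protein-coding genes of any length, 0.132% (29) had 5 or more liver sites, and 11 genes had more than Ppara. This cut is the count of Ppara itself, and gene length was not allowed for. Whether several weak peaks at 1 locus are separate binding events was not tested.

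Ppargc1b, the gene of PGC-1beta, had the densest binding that the tissues share. It held 3 regions with both a liver and a kidney peak, all inside the gene. The region nearest to its higher-coordinate end (liver peak chr18:61373969-61374210) scored 105 in liver, at rank 405, and 75 in kidney, at rank 392. The middle region (liver peak chr18:61368217-61368458) scored 70 in liver, at rank 1008, and 80 in kidney, at rank 338. The lowest (liver peak chr18:61357661-61357902) scored 85 in liver, at rank 666, and 80 in kidney, also at rank 338, since tied scores have the same rank. The order of the 3 regions by score therefore differed between the lists, with the upper region first in liver and last in kidney, but the kidney scores lay within 5 points of each other. Centres of the paired peaks were 8.0 to 26.0 bp apart. A liver peak without a kidney partner followed 0.964 kb after the lowest region (chr18:61358625-61358866, score 37, rank 2546). All 7 peaks lay within 16.6 kb of a gene of 109.0 kb. Among all protein-coding genes, 0.128% (28) had 3 or more regions with a liver and a kidney peak. That cut is likewise the count of Ppargc1b itself, and the share covers genes of any length. RefSeq gene spans alone were used for Ppargc1b, so exons, introns and the distance to its start are not given.

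The other coactivator gene, Ppargc1a, had a weak shared region and a kidney-only site of middle rank. PGC-1alpha is known as an inducer of mitochondrial biogenesis and of fasting gluconeogenesis in liver. Its shared region (liver peak chr5:51552552-51552793, kidney peak chr5:51552609-51552796) lay inside the gene, 15.1 kb (liver) and 15.0 kb (kidney) downstream of the listed start. It scored 26 in liver, at rank 3576 of 4813, and 17 in kidney, at rank 3323 of 4034, where the lowest scores of the lists are 17 and 14. A stronger peak was in kidney only (chr5:51591691-51591878, score 36, rank 1408). It lay 24.1 kb upstream of the listed start but inside the gene span, which RefSeq extends to 662.0 kb. With the gene ended at its listed start, that peak is lost and 10 kidney sites are left at the 7 genes in place of 11.

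**Figure D2:**
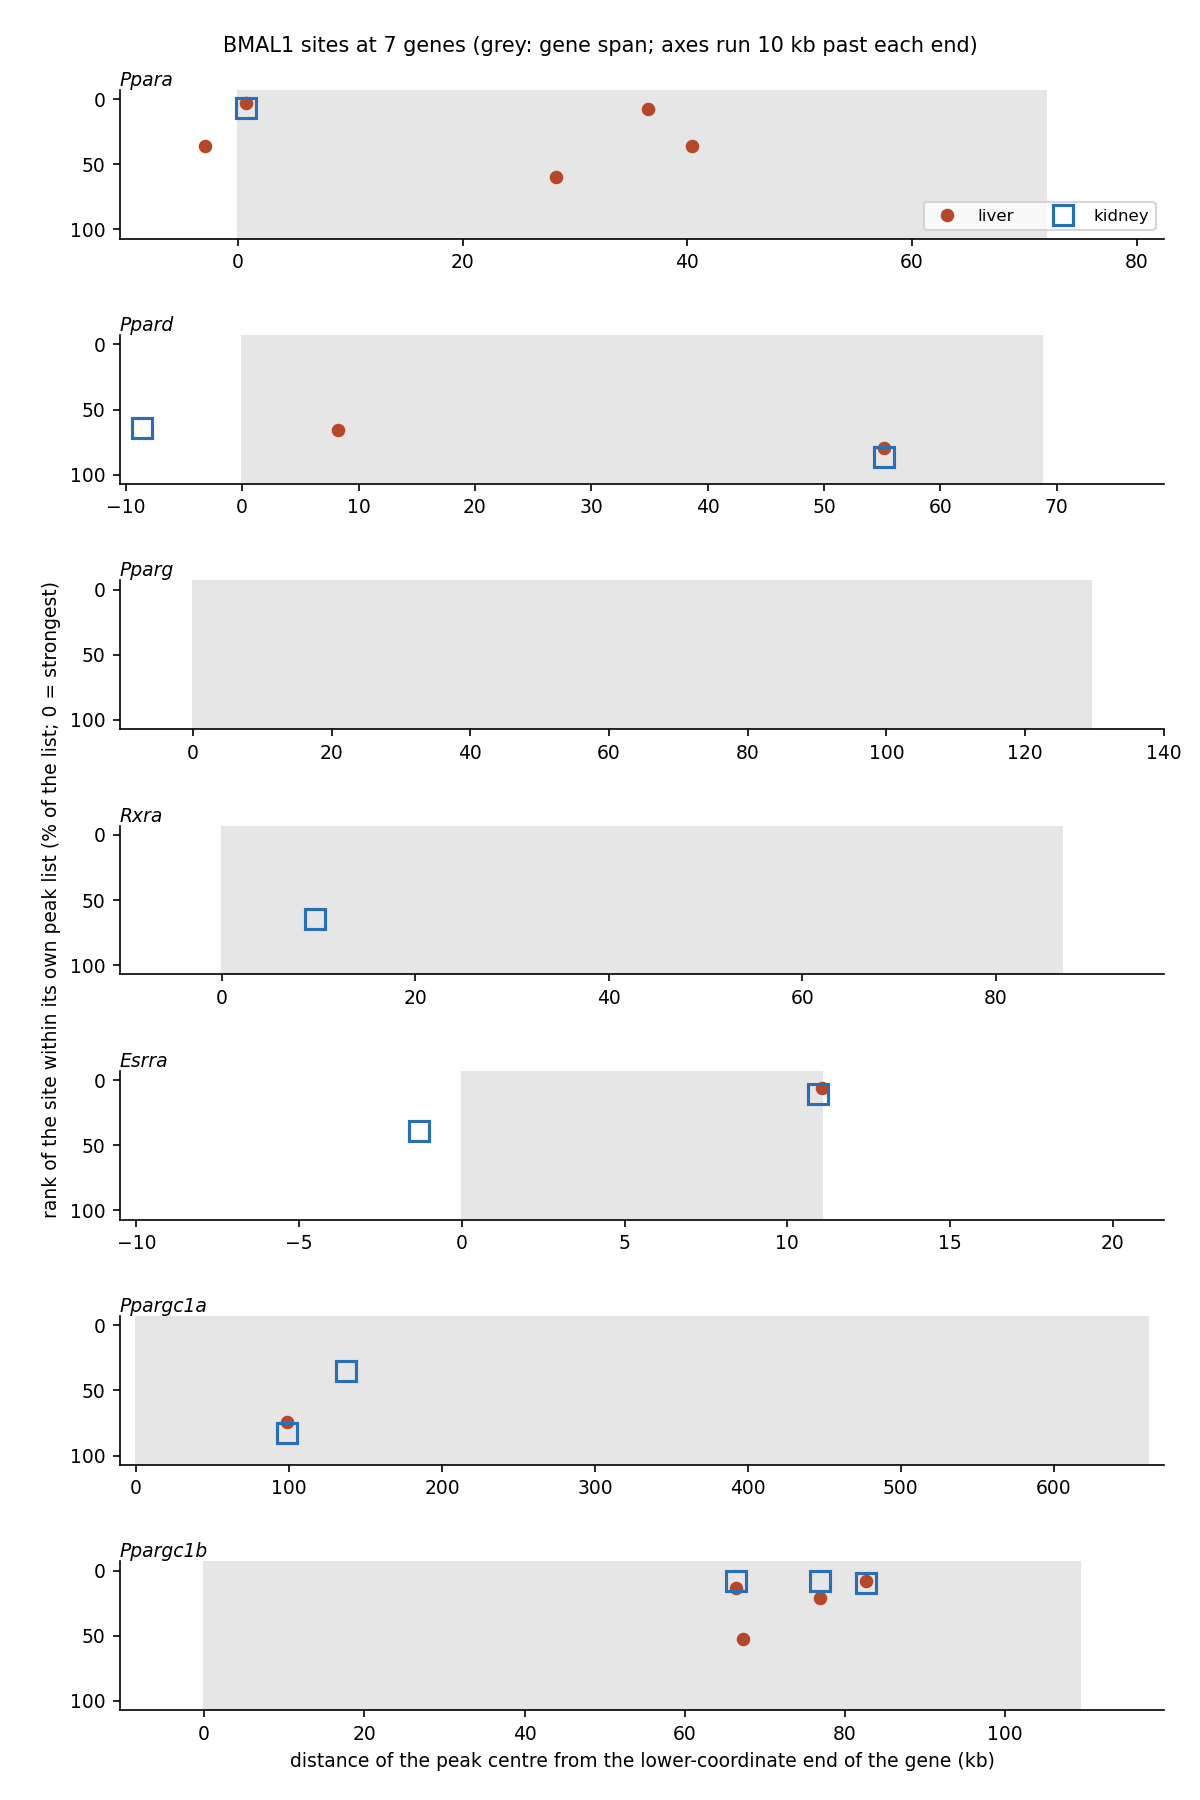
Every site at the 7 genes, by the distance of its centre from the lower-coordinate end of the gene (kb) and its rank as a percent of its own list (0 is the strongest), with liver as filled circles, kidney as open squares and the gene span in grey. Sites of Ppara, Esrra and Ppargc1b reach the upper part of the panels, those of Ppard and Rxra stay low, and the Pparg panel is empty.

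Among the remaining receptors binding was weak or missing. Ppard had a region with a liver and a kidney peak inside the gene, 55.1 kb downstream of its start (liver peak chr17:28287756-28287997). It scored 24 in liver, at rank 3823, and 16 in kidney, at rank 3480. A liver-only peak lay 8.24 kb downstream of the start (chr17:28240873-28241114, score 30, rank 3176). A kidney-only peak 8.65 kb upstream (chr17:28224012-28224199, score 22, rank 2591) lay inside the neighbouring gene Def6. All 4 Ppard sites were in the lower 50% of their lists.

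Rxra, the common partner of the PPARs, had 1 site, in kidney only, 8.85 kb downstream of a listed start inside the gene (chr2:27685954-27686141, score 22, rank 2591). Pparg had no site in the 3 lists. The peak nearest to it was a kidney peak 170.0 kb outside the gene, with a score of 28. A further kidney site counted for Esrra (chr19:6909560-6909747, score 33, rank 1588) lay 12.2 kb downstream of its start, 1.32 kb beyond the gene and inside Prdx5.

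The strong sites were concentrated at 3 of the genes. In liver, 6 of the 13 sites were in the upper 25% of the list by rank and 5 in the lower 50%. In kidney these counts were 5 and 4 of 11. Over all peaks at protein-coding genes, 28.1% of liver and 27.3% of kidney sites were in the upper 25%, and 47.0% and 47.7% in the lower 50%. The median site of the 7 genes was at 36.2% of the liver list and 34.9% of the kidney list, against 45.8% and 46.5% for all sites at protein-coding genes. With a 5 kb window, which drops 1 kidney site, the kidney median moved to 22.6%. The 11 sites in the upper 25% all belonged to Ppara, Esrra and Ppargc1b. They are not 11 separate places, since a region with a liver and a kidney peak counts as 2 of them. When only the top 1000 peaks of each list were kept, these 3 genes were the ones with a site in either tissue, and 4 shared regions were left of 7. Of the sites at genes with a listed start, 2 of 9 in liver and 2 of 8 in kidney were centred within 1 kb of it. Over the lists on the same chromosomes, 27.5% of liver and 39.3% of kidney peaks lay that near to a listed start of any gene.

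**Figure D3:**
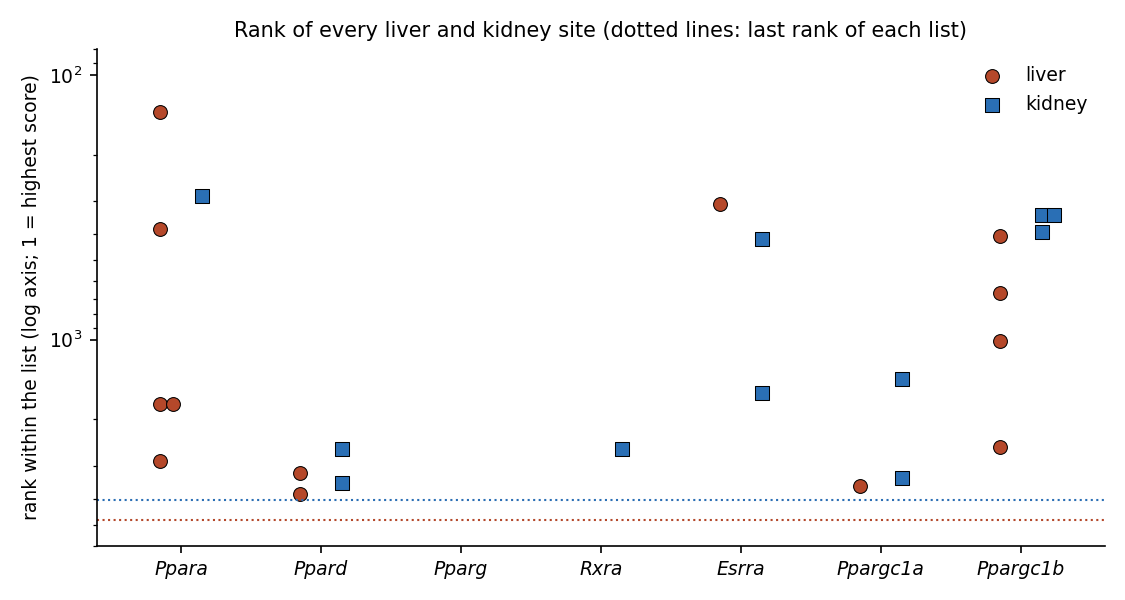
Rank of each liver (circle) and kidney (square) site within its list, by gene, on a log axis where 1 is the highest score, with dotted lines at the last ranks, 4034 and 4813. The best sites of Ppara, Esrra and Ppargc1b lie at ranks 138 to 405 in liver and 286 to 418 in kidney, and the best rank at Ppard and Rxra is 2591.

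Of the 17 regions at these genes, 7 (41.2%) held a liver and a kidney peak, 6 a liver peak only and 4 a kidney peak only. Of all 9005 regions 16.4% held a liver and a kidney peak, with or without heart, 35.5% a liver peak only and 25.8% a kidney peak only, so the single-tissue counts are near these shares. Shared regions were at 5 of the 7 genes, and 7.89% of protein-coding genes have 1. None of the 7 shared regions held a heart peak, and 35.1% of all regions with a liver and a kidney peak do. Of those whose liver peak ranked 1008 or better, as 5 of the 7 did, 52.4% held a heart peak. This cut is the rank of 1 of these 5 regions, and 3 of the 5 lie in Ppargc1b. Among the 1727 protein-coding genes with a region shared by liver and kidney, of any rank, 47.9% had a heart site. No heart peak lay within 50 kb of any of the 7 genes. The nearest was 52.6 kb outside Esrra, with a score of 40 and rank 654 of 2519, and for the other 6 genes the distance was 162.0 to 640.0 kb. The heart list is the shortest, so a weak heart site could have been left out of it. The part of list length in the lack of heart sites was not tested.

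The wider pathway was described with a list of 20 partner and coregulator genes and a list of 40 PPAR target genes, counted by the same rule. Both lists were also chosen with earlier results of these data known. Of the 20, 7 had a liver site, 9 a kidney site and 6 a heart site, and 10 had none. Of the 40, 16 had a liver site, 11 a kidney site and 6 a heart site, and 19 had none. These counts are 35.0, 45.0 and 30.0% for the coregulators and 40.0, 27.5 and 15.0% for the targets, beside the 18.1, 18.0 and 11.5% of all protein-coding genes. Having no site in any list is more common over all protein-coding genes, at 69.3%. Gene length was not allowed for in these counts.

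A region common to all 3 tissues was at 3 of the 20 coregulators and 2 of the 40 targets, beside 3.09% of protein-coding genes, a share at which 0 of the 7 genes does not stand apart. Sirt1, a deacetylase that acts on PGC-1alpha, had it 77.5 to 105.5 bp upstream of its start, with scores of 76 in liver (rank 848), 77 in kidney (rank 365) and 82 in heart (rank 210). Lpin1, a phosphatidate phosphatase that also coactivates PPAR-alpha, had 2 such regions. The stronger scored 110 in liver (rank 362), 62 in kidney (rank 563) and 82 in heart (rank 210). Pprc1, another member of the PGC-1 family, had a common region 3.02 to 3.09 kb outside the gene. There the heart peak ranked 679, the kidney peak 911 and the liver peak 1480 in their lists. With each peak given to its nearest gene only, 6 coregulators had a liver site, 8 a kidney site and 5 a heart site. A region outside a gene, such as that of Pprc1, may therefore belong to a neighbour. Prdm16, known from brown fat, was led by a liver-only site of score 98 (rank 483). It also had a region with a liver peak (rank 821) and a kidney peak (rank 813), and a heart-only peak (score 22, rank 1491). The coactivator gene Ncoa2 had liver and kidney sites of ranks 788 and 813 that did not overlap.

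Among the targets, common regions lay at Acsl1, which activates long-chain fatty acids, and at Angptl4, a secreted inhibitor of lipoprotein lipase. The Acsl1 region lay 31.5 to 57.5 bp downstream of its start and scored 158 in liver (rank 117), 88 in kidney (rank 270) and 89 in heart (rank 182). The Angptl4 region, inside the gene, scored 118 in liver (rank 296), 98 in kidney (rank 216) and 101 in heart (rank 134). Fabp3, a fatty acid carrier of heart muscle, was bound in kidney (score 148, rank 64) and heart (score 101, rank 134) at a region 708.5 to 737.5 bp upstream of its start, with no liver peak. A region with peaks in liver (score 147, rank 160) and kidney (score 103, rank 185) was counted for Acadvl, a fatty acid oxidation enzyme, but lay 9.65 kb outside it, and the genes Dvl2 and Phf23 are nearer to it.

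**Figure D4:**
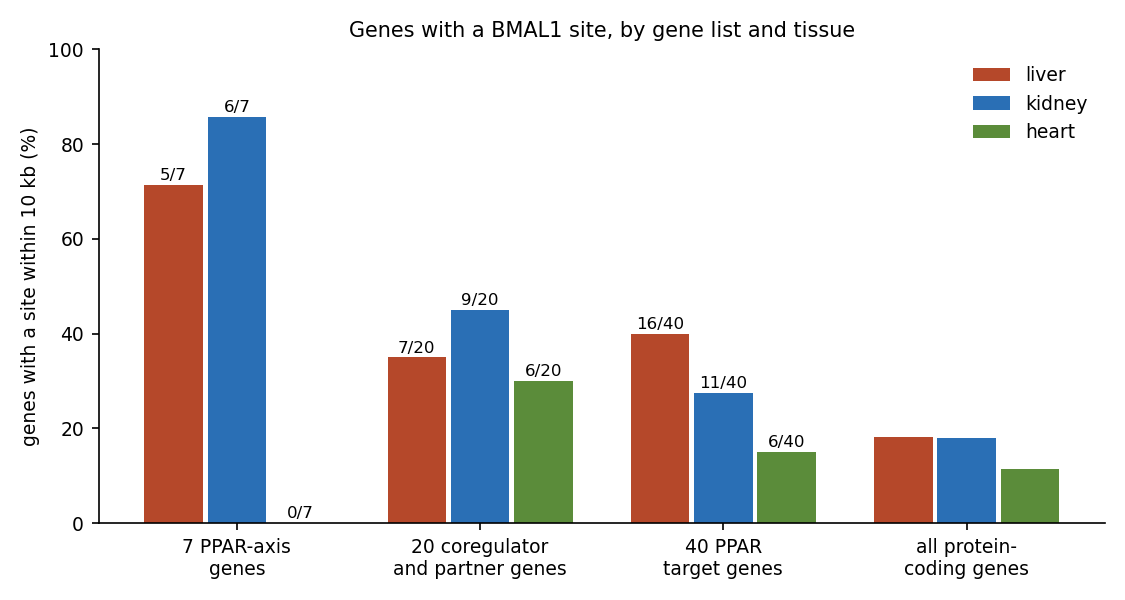
Percent of genes with a site within 10 kb in liver (red), kidney (blue) and heart (green), for the 7 genes, the 20 coregulator and partner genes, the 40 target genes and all protein-coding genes, with the counts above the bars. The 7 genes have 5, 6 and 0 genes with a site. Heart sites are at 6 of the 20 coregulator and partner genes (30.0%) and 6 of the 40 target genes (15.0%), beside 11.5% of all protein-coding genes.

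Ppara had the best ranks of the 7 genes over liver and kidney, at 2.87% and 7.09% of the lists. As no gene of the 7 had a site in all 3 lists, genes of like pattern were sought, after this was seen, among the 1186 others with sites in liver and kidney but not heart. The closest by best-site rank were Slc20a1 (3.41% and 7.51%), Irak2 and Tatdn2 (2.97% and 6.54% each, with identical ranks in both lists). This likeness rests on 2 values per gene.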

How the data were processed

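BMAL1 peaks of 3 mouse tissues were used, as 1 list per tissue that the authors made from all ChIP and input replicates together, per the labels. Per the submitters' processing notes, Bowtie2, SAMtools and HOMER were used and the build was mm10. Caller settings and filters were not stated in the labels. The score that the authors deposited with each peak has no stated meaning or scale, so it was used only to rank peaks within a list (ties take the best rank). Weak sites may enter 1 list and miss another where pools differ in depth or enrichment.

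Gene spans of 21887 protein-coding genes came from RefSeq (GRCm38.p6), and start sites, strand and sequence from RefSeq promoter windows. All 7 genes and all 60 list genes matched. Coordinates count from 1. A peak was assigned to every gene whose span plus 10 kb held its centre. Peaks overlapping by at least 1 bp were merged into regions. Python 3.11.15 with pandas 2.3.3 was used, and the code was tested on simulated data. With pooled lists no test was run. The shares over all protein-coding genes stand beside the counts. Alternatives were windows of 5 and 50 kb, inside the gene only, upper 50% or top 1000 of each list, nearest gene only, and other overlap rules. The genes and lists were chosen with earlier results of these data known. Genes named from the lists were those with a region common to all tissues and the 3 best-ranked per tissue. A gene that this rule selects is not reported here.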

Additional observations from a re-analysis of the deposited data

How the results depend on the processing

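Widening the window to 50 kb added no heart site at the 7 genes. It could add none, since the nearest heart peak lay 52.6 kb outside Esrra. Of 68 alternative counts of results above 0, 49 were equal to the reported count or within 1.5 times of it. Keeping the upper 50% of each list by score left 8 liver and 7 kidney sites, and 3 genes with a liver site. The top 1000 peaks of each list left 5 liver and 5 kidney sites, 3 genes with a liver site and 3 with a kidney site, 4 shared regions, and 7, 6 and 3 PPAR target genes with a liver, kidney or heart site. Fewer peaks enter these settings by construction. Target genes with a kidney site numbered 7 with a 5 kb window, 18 with 50 kb and 7 with the nearest gene only. Inside genes alone there were 10 target genes with a liver site, 4 with a kidney site and 3 with a heart site, and 4 coregulators with a liver site, against 11 of these with a 50 kb window. Ranking among peaks at protein-coding genes moved the median site to 39.1% in liver and 36.5% in kidney, and a 5 kb window moved the kidney median to 22.6%. No paired analysis was possible because replicates were pooled before deposit and no test was run. For the same reason no replicate could be left out, and depth is unknown.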

Other observations

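Other PPAR target genes showed patterns that the naming rule did not select, and these were chosen after their values were seen. Cpt1a, which controls fatty acid entry into mitochondria, had 2 regions with peaks in both liver and kidney, at ranks 713 and 1157 in liver and 563 and 1198 in kidney. The second of these lay 2.27 kb (liver) and 2.3 kb (kidney) downstream of its start, and the first 3.57 kb beyond the gene. Txnip, an inhibitor of thioredoxin, had a region 95.5 bp (liver) and 87.5 bp (kidney) upstream of its start, with scores of 104 in liver (rank 413) and 82 in kidney (rank 317). The lipid droplet genes Plin2 and Plin5 had sites in liver and heart at different places. At Plin2 the liver peak lay 22.5 bp upstream of the start (score 69, rank 1035) and the heart peak 12.7 kb downstream (score 25, rank 1257). At Plin5 the best liver peak lay 938.5 bp downstream of the start (score 94, rank 525) and the heart peak 2.84 kb outside the gene (score 29, rank 1014). None of these had a test, since each tissue has 1 pooled list.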
